A study of Arabidopsis thaliana with 6 samples.

Results

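The genes described here are 10 *Arabidopsis thaliana* loci of cuticle and wax formation, listed by locus identifier; the choice was made with earlier results of these data known. They were KCS1 (AT1G01120), CER6 (AT1G68530), CER1 (AT1G02205), CER3 (AT5G57800), CER5 (AT1G51500), LACS2 (AT1G49430), GPAT4 (AT1G01610), LTP1 (AT2G38540), LTP2 (AT2G38530) and WIN1 (AT1G15360). Each of the 10 has a body in the reference table, which holds 27444 protein-coding genes over the 5 nuclear chromosomes. The mRNA table, with 20764 loci, had an entry for 9 of them, and for 72.9% of all protein-coding genes.

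Every sample came from young leaves of soil-grown accession Columbia-0, kept at 22.5 °C with 8 h of light and 16 h of darkness per day, so no treatment, genotype or second tissue was compared. The 6 samples were 2 chromatin immunoprecipitation (ChIP) replicates for the histone mark H3K4me3, 2 for H3K27me3, 1 input DNA and 1 mRNA library. Each mark is represented by 1 domain list and mRNA by 1 table, so no value below has a replicate error and no difference between genes was tested. The leaves were whole organs, so fewer cells of a type and less RNA per cell cannot be told apart, and 2 marks on a gene may lie on the same chromatin or in different cells.

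The cuticle is the waxy layer that seals the outer wall of the plant epidermis against water loss. Its waxes are made in the endoplasmic reticulum of epidermal cells, where fatty acids are lengthened to very long chains and turned into alkanes, alcohols and esters. Its polyester, cutin, is built from oxidised fatty acids and glycerol, and both are carried out of the cell through transporters of the ABC family. H3K4me3 is a mark of transcribed genes, whereas H3K27me3 is set by the Polycomb repressive complex PRC2 and is known from genes kept silent in a tissue.

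mRNA is given as read depth, read here as the mean number of reads over the exon bases of a gene, a level per base rather than per gene. No listed locus was below 1, so the mean appears to leave out bases without a read. It then overstates shallow genes, and low depths are less comparable between genes. Listed protein-coding genes had a median depth of 6.92, with 16.6 at the 75th percentile and 43.3 at the 90th. The labelled tissue was checked against markers of leaf, root and flower. The mesophyll genes CAB1, RBCS1A and RCA, which encode an antenna protein, the small subunit of Rubisco and its activase, had depths of 22244, 12915 and 3998. The epidermal genes PDF2, PDF1 and ATML1 had 32.6, 26.8 and 20.0. Of 3 root markers, EXPA7 and COBL9 were not listed and CASP1 had 1.18, and of 3 flower markers, AP3 and PI were not listed and AG had 1.41.

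A mark was assigned to a gene if its domains lay over 150 or more bases of the gene body. H3K27me3 was on 8 of the 10 cuticle and wax genes, against 31.0% of all protein-coding genes (exact 95% interval 30.4 to 31.5). H3K4me3 was also on 8 of the 10, against 64.4% of all genes (63.8 to 65.0). Both marks together were on 6, namely KCS1, CER6, CER5, LACS2, LTP1 and WIN1, against 10.1% of all genes (9.79 to 10.5). CER3 and GPAT4 carried H3K4me3 alone, the class of 54.2% of all genes. CER1 and LTP2 carried H3K27me3 alone, the class of 20.8%, and no member was free of both, as 14.8% of all genes were. The 2 domain sets overlapped by at least 150 bases on all 6 doubly marked members, and on 9.26% of all genes. Of the 2785 genes with both marks, 2541 had such an overlap, so it is usual among doubly marked genes. These counts depend on how a mark is called. A stricter reading used the higher-scoring domains, those whose score reached the median of the list. On that reading H3K4me3 was on 5 members, against 36.0% of all genes, H3K27me3 on 6, against 21.6%, and both marks on 2 (KCS1 and CER6), against 1.01%. When domains had to cover 50% of the body, H3K4me3 was on 4 members, against 15.5% of all genes, H3K27me3 on 6, against 22.1%, and both marks on 3 (KCS1, CER6 and LTP1), against 1.49%. The counts stayed at 8, 8 and 6 when a single base sufficed, where the shares of all genes were 64.8%, 31.3% and 10.4% for H3K4me3, H3K27me3 and both. They also stayed at 8, 8 and 6 when the body was widened by 500 bases on each side, where those shares were 68.2%, 35.5% and 15.5%.

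The median depth of the 10 genes was 23.0, against 3.41 over all protein-coding genes with unlisted genes set to 0. LTP1 stood first at 1204.5, followed by CER6 at 110.6 and CER5 at 72.7, and these 3 lay above the 90th percentile of listed genes, which 7.29% of all protein-coding genes reached. KCS1 followed at 32.8, GPAT4 at 28.8 and CER3 at 17.2, all above the 75th percentile. LTP2 at 8.63, LACS2 at 7.49 and CER1 at 4.30 lay in the middle of the listed genes, at percentiles 56.8, 52.4 and 36.8. WIN1 was not listed. No error can be given for a single depth, so neighbours in this order, such as LTP2 and LACS2 or KCS1 and GPAT4, cannot be said to differ.

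**Figure D1:**
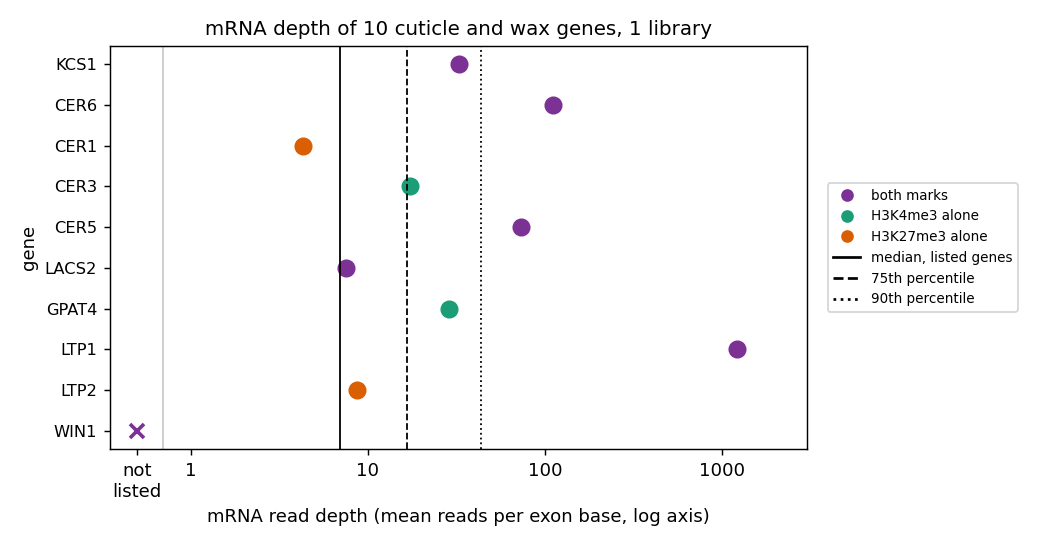
mRNA read depth of the 10 cuticle and wax genes in the single mRNA library, on a log axis, with 1 point per gene coloured by the marks on its body; a cross marks a gene not listed in the table. LTP1, CER6 and CER5 lie right of the 90th percentile of listed genes (43.3), and WIN1 has no depth.

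Genes as deep as these seldom carry H3K27me3. Of the 4999 protein-coding genes at or above the 75th percentile of depth, 11.8% carried H3K27me3 and 10.6% carried both marks. Among the 6 cuticle and wax genes in that range, 4 carried both marks (KCS1, CER6, CER5 and LTP1) and CER3 and GPAT4 had H3K4me3 alone. Among higher-scoring domains, H3K27me3 was on 3 of these 6 (KCS1, CER6 and LTP1), against 4.52% of all genes in the range. This depth limit was chosen after the values were seen. H3K27me3 was also on all 3 epidermal markers, which are listed above with depths from 20.0 to 32.6, and on none of the 3 mesophyll markers. All 3 root and all 3 flower markers carried it too, against 31.0% of all protein-coding genes. ATML1 and PDF2 are also among the wider pathway genes described below. The part that the mix of cell types plays in these counts was not tested.

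KCS1 and CER6 (also named KCS6 or CUT1) encode 3-ketoacyl-CoA synthases, the condensing enzymes that set the chain length in fatty acid elongation, and CER6 is the main one of stem wax. KCS1 lay under 1 domain of each mark. Its H3K4me3 domain of 1500 bases (chr1:57451-58950, TAIR10) and its H3K27me3 domain of 1500 bases (chr1:57601-59100) shared 1350 bases, and each covered 73.1% of the gene body. CER6 had 2 domains of each mark. The wider ones had the same edges in both lists, 1200 bases at chr1:25713601-25714800, at percentile 83.7 of score in the H3K4me3 list and 77.8 in the H3K27me3 list. The narrower H3K27me3 domain of CER6 (300 bases, chr1:25713001-25713300) lay inside its narrower H3K4me3 domain (600 bases, chr1:25712851-25713450), so all 1500 bases under H3K27me3 were also under H3K4me3. KCS1 and CER6 carried both marks under each of the 4 other ways of calling a mark that were tried.

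CER1 and CER3 act together in making the alkanes that form much of leaf and stem wax, and they differed in their marks. CER1 had no H3K4me3 on its body, and the nearest H3K4me3 domain lay 2371 bases away. Its body was 83.5% under H3K27me3, in domains of 1500 bases (chr1:418501-420000) and 2100 bases (chr1:420601-422700), both above the 85th percentile of score in their list, and its depth was 4.30. CER3 had 1 H3K4me3 domain of 1500 bases (chr5:23420251-23421750) over 38.1% of its body, no H3K27me3 within 1083 bases, and a depth of 17.2. The gene next to CER1, its close relative CER1-LIKE1 (AT1G02190), was not listed in the mRNA table and lay 95.7% under H3K27me3, in a domain of its own that ended 600 bases short of the first CER1 domain.

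CER5 (ABCG12) is an ABC transporter of the plasma membrane that exports wax. It had the most H3K4me3 of the 10 genes, 2100 bases in domains of 1800 bases (chr1:19098751-19100550) and 300 bases (chr1:19100701-19101000), which is percentile 99.2 among all genes with the mark. Its H3K27me3 was a single domain of 300 bases with the same edges as the narrower H3K4me3 domain. That is the narrowest width in the H3K27me3 list, where 3003 of 15863 domains have it, and the domain stood at percentile 13.6 of score. Among higher-scoring domains, CER5 carried H3K4me3 alone.

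LACS2 and GPAT4 belong to cutin synthesis, LACS2 as an acyl-CoA synthetase that activates fatty acids and GPAT4 as an acyltransferase that joins them to glycerol. LACS2 had little of either mark for its length. Its H3K4me3 was 1 domain of 150 bases (chr1:18291151-18291300), the narrowest width in that list and at percentile 1.91 of score. H3K27me3 covered 900 bases of LACS2 in domains of 300 bases (chr1:18291001-18291300) and 600 bases (chr1:18293701-18294300), 18.1% of the body, and LACS2 had neither mark among higher-scoring domains. GPAT4 had H3K4me3 on 48.0% of its body, in domains of 450 bases (chr1:222601-223050) and 900 bases (chr1:223501-224400). The nearest H3K27me3 domain to GPAT4 was 2149 bases away.

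LTP1 and LTP2 encode small secreted lipid transfer proteins and are tandem neighbours, 890 bases apart with no annotated gene between them. LTP1 had a depth of 1204.5, at percentile 99.7 of listed genes, and LTP2 had 8.63, at percentile 56.8. Both bodies were mostly under H3K27me3, 74.8% of LTP1 and 89.8% of LTP2, in separate domains of 900 bases (chr2:16130101-16131000) and 1200 bases (chr2:16128301-16129500) with 600 bases between them. LTP1 also had an H3K4me3 domain of 600 bases (chr2:16130251-16130850), which lay wholly inside its H3K27me3 domain, and LTP2 had none. Among higher-scoring domains LTP1 had H3K27me3 alone. LTP1 and LTP2 are close copies, and the sources used here do not say how mRNA or ChIP reads that match both were assigned. The depths and the domains of the 2 genes are therefore uncertain and are not independent of each other.

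WIN1 (SHN1) is an AP2/ERF transcription factor that activates cutin and wax genes. It was not listed in the mRNA table, and its whole body lay under an H3K27me3 domain of 1800 bases (chr1:5283001-5284800), which stood at percentile 91.0 of score, the highest of any H3K27me3 domain on the 10 genes. An H3K4me3 domain of 450 bases (chr1:5284051-5284500) lay wholly inside it, at percentile 13.7 of its own list. Among higher-scoring domains, WIN1 had H3K27me3 alone.

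**Figure D2:**
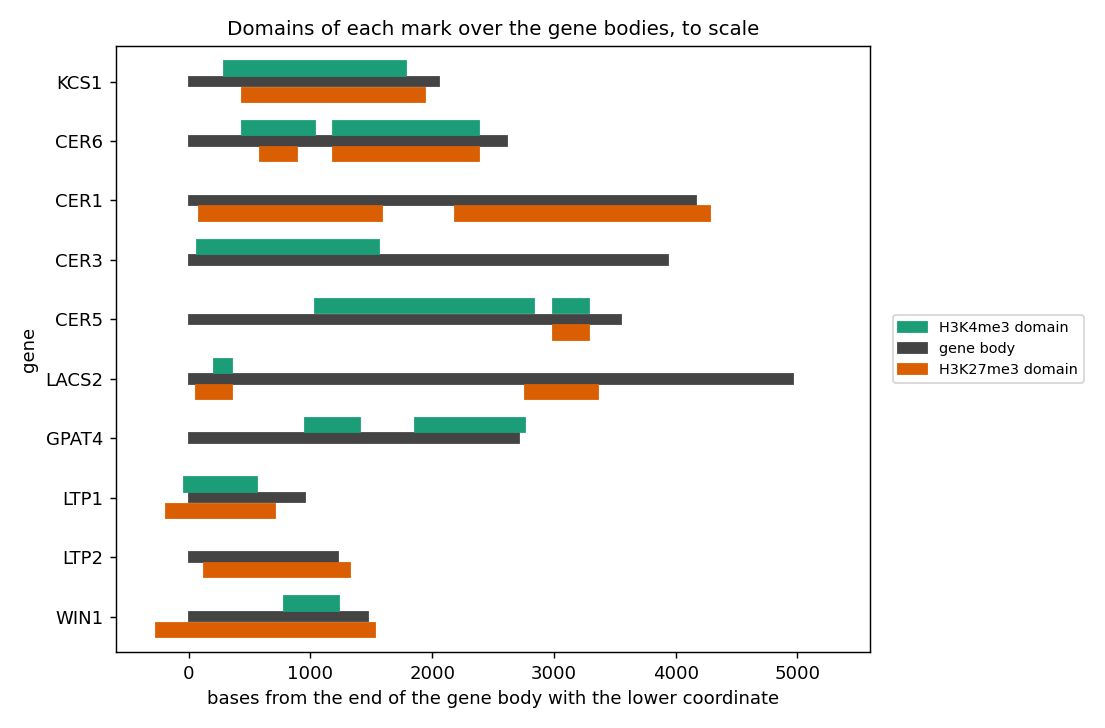
Domains of H3K4me3 (green, above) and H3K27me3 (orange, below) over the body (grey) of each cuticle and wax gene, drawn to scale in bases from the body's end with the lower coordinate; the direction of transcription is not shown. The marks have the same edges over the wider domains of CER6 and the single H3K27me3 domain of CER5, the H3K4me3 domains of LTP1 and WIN1 lie inside H3K27me3 domains, and CER1 and LTP2 have no H3K4me3.

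Among the 10 genes, depth went with H3K4me3 more than with H3K27me3. CER5, CER6, KCS1, CER3 and GPAT4 had 1301 to 2100 bases of H3K4me3, each at percentile 89.5 or higher among genes with the mark, and depths from 17.2 to 110.6. LACS2, CER1, LTP2 and WIN1 had 0 to 450 bases of H3K4me3 and depths up to 8.63. LTP1 was the exception in bases, with 561, although these were 59.0% of its short body. Across the 10 genes, Spearman's rho between depth and the share of the body under H3K4me3 was 0.80, against 0.69 over all protein-coding genes, and for H3K27me3 it was -0.38, against -0.50. These values describe genes of 1 library and 1 domain list per mark, and genes are not independent replicates.

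**Figure D3:**
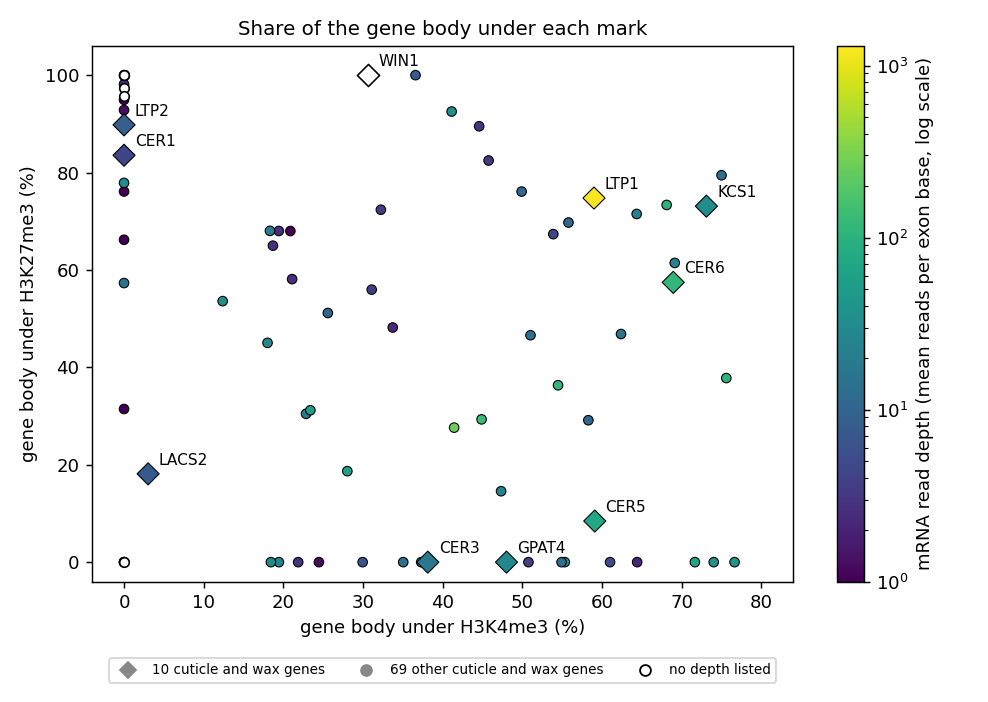
Share of the gene body under H3K4me3 (x axis, %) and H3K27me3 (y axis, %), with 1 diamond for each of the 10 cuticle and wax genes and 1 circle for each of 69 other genes of the pathway, filled by mRNA read depth on a log scale; open symbols have no depth listed. KCS1, CER6 and LTP1 lie in the upper right with 59.0% or more of the body under H3K4me3 and 57.4% or more under H3K27me3.

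The surroundings of the 10 genes differed in H3K27me3. Outside the gene body, in the 20 kb around its middle, H3K27me3 covered 44.5% of the bases near CER5, 29.3% near LTP1, 28.8% near LTP2 and 24.5% near WIN1, whereas the genome-wide share was 15.1%. It covered 19.7% near CER1, 17.3% near CER6 and 13.1% near CER3. Near KCS1, LACS2 and GPAT4 it covered 6.69%, 3.99% and 3.47%. KCS1 thus had H3K27me3 over most of its body in a stretch with little of the mark, and CER5 had 300 bases of it in the stretch with the most. The LTP1 and LTP2 stretches overlap each other.

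The wider pathway was described with 69 further genes of elongation, wax products, cutin, export, lipid transfer and regulation, a list also made with earlier results known. H3K27me3 was on 49 of the 69, against 31.0% of all genes. H3K4me3 was also on 49, a share of 71.0%, against 64.4% of all genes. Both marks were on 33 of the 69, against 10.1%. The median depth of the 69 was 7.98, against 3.41 over all genes. Among higher-scoring domains, H3K27me3 was on 42 of the 69, against 21.6% of all genes, and both marks were on 11, against 1.01%. Of the 24 among them at or above the 75th percentile of depth, 16 carried H3K27me3, against the 11.8% given above.

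**Figure D4:**
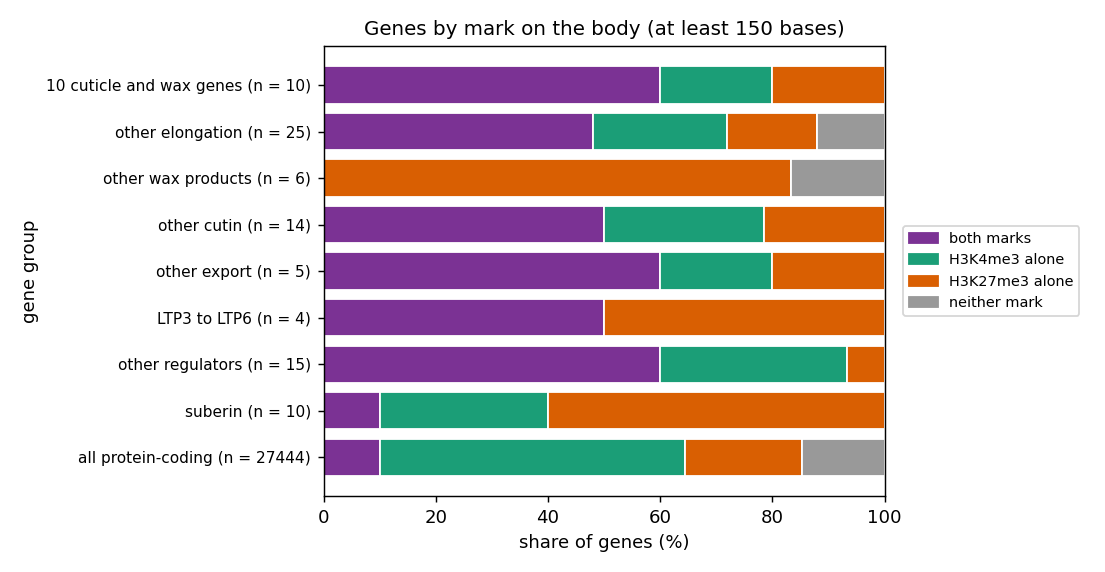
Share of genes (%) with both marks, H3K4me3 alone, H3K27me3 alone or neither on at least 150 bases of the body, for the 10 cuticle and wax genes, the groups of the wider pathway, suberin genes and all 27444 protein-coding genes. Both marks were on 6 of the 10 genes, on none of the 6 other wax product genes and on 10.1% of all protein-coding genes.

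All 21 KCS genes could be compared, KCS1 and CER6 among them. CER6 was the deepest of the family, followed by KCS10 (FDH, needed to keep epidermal organs from fusing) at 98.5. Both marks were on 11 of the 21, against 10.1% of all genes. H3K4me3 alone was on 3, against 54.2%, H3K27me3 alone on 4, against 20.8%, and neither on 3, against 14.8%. Among higher-scoring domains, 6 of the 21 carried both marks, against 1.01% of all genes. Of the 7 at or above the 75th percentile of depth, 6 carried both marks, against 10.6% of all genes in that range. The exception was KCS9 with H3K4me3 alone at 42.5. KCS5 (CER60), the closest relative of CER6, had a depth of 4.48, and H3K4me3 covered 53.9% and H3K27me3 67.4% of its body. Among higher-scoring domains KCS5 had H3K27me3 alone. KCS18 (FAE1), the elongase of seed oil, was not listed and lay 97.4% under H3K27me3 with no H3K4me3. KCS7 and KCS21 were not listed either, and KCS15, which overlaps another annotated gene, and KCS17 had the lowest depth of 1.00. KCS19 was the deepest family member without H3K4me3, at 15.2.

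The other enzymes of the elongation cycle, KCR1 (ketoacyl-CoA reductase, 39.3), PAS2 (dehydratase, 19.8) and CER10 (enoyl-CoA reductase, 41.8), carried H3K4me3 alone. That is the commonest class, with 54.2% of all genes. CER10 overlaps a neighbouring gene, and reads of the pair cannot be told apart here. Proteins of the CER2 family assist the synthases in making the longest chains, and all 3 genes carried both marks, against 10.1% of all genes. Their depths were 127.6 for CER26 (AT4G13840), 19.0 for CER2 and 13.9 for CER2-LIKE2. CER2 overlaps another annotated gene and had neither mark among higher-scoring domains.

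**Figure D5:**
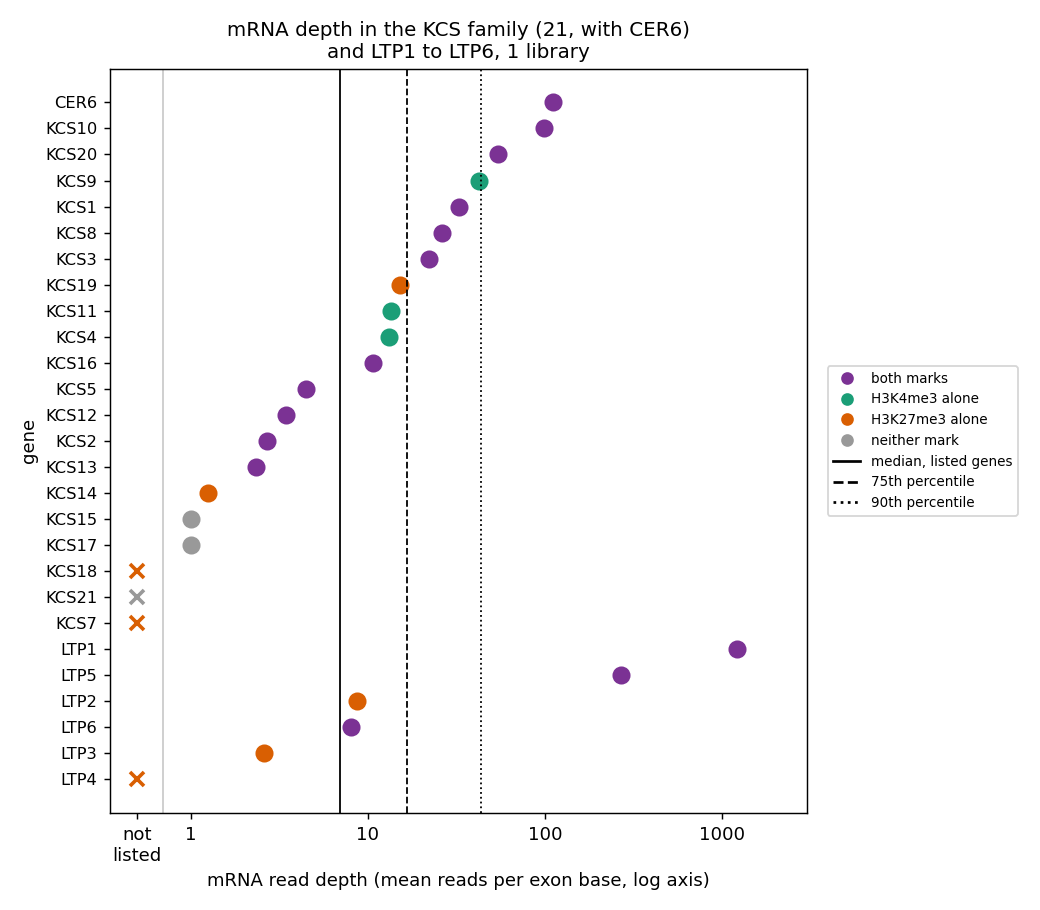
mRNA read depth (log axis) of the 21 KCS genes, with CER6 among them, and of LTP1 to LTP6, each family sorted by depth, with 1 point per gene coloured by its marks and a cross for a gene not listed. CER6 leads the KCS family at 110.6 and LTP1 leads the LTP genes at 1204.5, and both carry both marks.

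All 6 LTP genes carried H3K27me3, against 31.0% of all genes. LTP5, at a depth of 266.1, and LTP6, at 7.98, carried both marks like LTP1, and LTP3 (2.60) and LTP4 (not listed) carried H3K27me3 alone like LTP2. None of the 6 carried both marks among higher-scoring domains, but 6 genes are too few to compare with the 1.01% of all genes. Among those domains LTP1 and LTP6 had H3K27me3 alone and LTP5 had neither mark. Score rises with domain width, and LTP1, LTP5 and LTP6 had only 561, 450 and 300 bases of H3K4me3. H3K27me3 covered 27.6% of the body of LTP5, in a single window of 300 bases, and 98.1% to 100% of LTP3, LTP4 and LTP6.

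None of the 6 other wax product genes carried H3K4me3, against 64.4% of all genes, and 5 carried H3K27me3 alone, against 20.8%. CER4, which makes primary alcohols, MAH1 (CYP96A15), which oxidises alkanes, WSD1, which makes wax esters, and ADS4, a desaturase, had the lowest depth of 1.00 and lay 66.2% to 100% under H3K27me3. LACS1 (CER8), an acyl-CoA synthetase of wax and cutin related to LACS2, carried neither mark, as 14.8% of all genes did. Its depth of 6.12 was the highest of the 6 and lay near the median of 6.92 of listed genes.

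Among the 14 other cutin genes, 7 carried both marks, against 10.1% of all genes, 4 H3K4me3 alone, against 54.2%, and 3 H3K27me3 alone, against 20.8%. Among higher-scoring domains, 2 of the 14 carried both marks, against 1.01% of all genes. The deepest were CYP86A2, a fatty acid hydroxylase, at 101.3, and GPAT8, the close relative of GPAT4, at 34.4. GPAT8 differed from GPAT4 in carrying H3K27me3 on 92.5% of its body besides 41.1% under H3K4me3, at a depth near the 28.8 of GPAT4. Among higher-scoring domains GPAT8 had H3K27me3 alone. CYP86A7 and CUS2, a cutin synthase, had the lowest depth of 1.00 with H3K27me3 alone. CYP86A4, the annotated neighbour of GPAT4, had H3K4me3 alone at a depth of 1.27, and neither mark among higher-scoring domains. LTL1 was the one cutin gene with H3K27me3 alone and a depth above the 75th percentile, at 32.7.

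Of the 5 other export genes, LTPG1 and LTPG2, lipid transfer proteins held at the plasma membrane, had depths of 113.9 and 55.9 and both marks. ABCG11, which can pair with CER5, also carried both marks at 24.9, and ABCG32, a cutin exporter, had H3K4me3 alone at 25.8. None of the 5 carried both marks among higher-scoring domains, but 5 genes are too few to compare with the 1.01% of all genes. Among those domains LTPG1 had neither mark, LTPG2 had H3K27me3 alone and ABCG11 had H3K4me3 alone. ABCG13, a close relative of CER5 known from petals, had a depth of 1.00 and H3K27me3 on 31.4% of its body. Among higher-scoring domains ABCG13 had neither mark. CYP86A2, CUS2, ABCG11 and LTPG1 overlap another annotated gene.

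Among the 15 other regulators, 14 carried H3K4me3, against 64.4% of all genes, and 10 carried H3K27me3, against 31.0%. Both marks were on 9 of the 15, against 10.1% of all genes, and on 3 among higher-scoring domains, against 1.01%. SHN2 and SHN3, the relatives of WIN1, carried both marks like WIN1 and had depths of 1.00 and 2.65. Their bodies were 68.0% and 65.0% under H3K27me3, against 100% for WIN1. DEWAX, a repressor of wax genes, was the deepest of these regulators at 69.2, with H3K4me3 alone. The homeodomain genes ATML1 and PDF2, which specify the epidermis, carried both marks. Among higher-scoring domains SHN2, SHN3, ATML1 and PDF2 had H3K27me3 alone. MYB41 was not listed and lay wholly under H3K27me3, the one regulator without H3K4me3. SHN2 overlaps another annotated gene.

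The protein-coding genes most like the centre of the 10 were found by the distance between ranks of depth, share under H3K4me3 and share under H3K27me3, 3 values per gene from 1 library and 1 list per mark. The 5 nearest were AT3G11250, AT3G10080, CYP79B2, AT4G18280 and AT1G79520, with distances from 0.038 to 0.047 on ranks scaled 0 to 1. All 5 carried both marks, with depths from 16.4 to 28.1, which follows from the way they were chosen. AT1G79520 overlaps another annotated gene.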

How the data were processed

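Per the submitters' processing notes, Bowtie, SICER and the TAIR10 build were used. What the authors deposited is a domain list for each mark, with a whole-number score per domain, and a table of mRNA coverage signal per gene, read here as mean depth over exons. How replicates and input entered the domain calls, the library size and any scaling of depth are not stated in these sources. Domain starts and widths are multiples of 150 bases for H3K4me3 and 300 for H3K27me3, so the narrowest domains differ between marks. The score rose with width (Spearman rho 0.89 and 0.95) and only ranked domains within a list. The lowest depth was exactly 1, for 7.66% of listed loci, which fits a mean over covered bases.

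Gene bodies came from the RefSeq table of TAIR10.1, which has no strand, and its coordinates are not printed. Moving the bodies by up to 10 kb against the H3K4me3 domains gave the best overlap with no shift in each of 26 windows of 5 Mb. Domain coordinates are 1-based. Coverage code (Python 3.11.15, pandas 2.3.3, scipy 1.17.1) was tested on simulated data. Intervals of shares are exact Clopper-Pearson and those of median depths come from the ordered values, both for counting over genes only. Members and lists were chosen with earlier results of these data known. All members were named. For other lists the rule allowed the 2 deepest, the 2 shallowest and genes outside the most frequent class, of which some are named, besides close relatives or neighbours of members. CER2, CER2-LIKE2, CER4 and MAH1 were named after their values were seen.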

Additional observations from a re-analysis of the deposited data

How the results depend on the processing

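No paired analysis was possible because each mark has 1 domain list and no values per replicate, and leaving out a replicate was not possible for the same reason. With at least 1 base covered or the body widened by 500 bases, the counts of members with H3K4me3, H3K27me3 and both stayed at 8, 8 and 6. With 50% of the body covered, H3K4me3 was on 4 members and 19 of the 69 other genes, against 15.5% of all genes. Both marks were then on 3 members, against 1.49%. Among higher-scoring domains, H3K4me3 was on 5 members and 25 of the 69, against 36.0% of all genes. The 25 of 69 is near that share. Both marks were on 2 members there, against 1.01%. H3K27me3 was on 6 members in each case, against 22.1% and 21.6%. The mean log2(depth + 1) of the members was 2.29 above that of all protein-coding genes. This difference was 2.99 with a pseudocount of 0.1 and 1.93 among listed genes only. The median depth of the members was 28.8 among listed genes, against 6.92. Over all 10 members the median of 23.0 had a 95% interval from 4.30 to 110.6, which includes 6.92 but not 3.41. At the 95th percentile 2 members remained in the deepest class, against 3.64% of all genes. Above the 90th percentile of all genes, which 10% reach, lay 4 members. Domains of 1 window (among them those on CER5, LACS2 and LTP5 and the narrower H3K27me3 domain of CER6) rest on the smallest call the lists allow.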

Other observations

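Suberin, the root and seed coat polyester related to cutin, uses enzymes of the same families. Of 10 suberin genes, 7 carried H3K27me3, against 31.0% of all genes, and 4 carried H3K4me3, against 64.4%. Both marks were on 1 of the 10, ABCG6, a share near the 10.1% of all genes. Among higher-scoring domains none of the 10 carried both, but 10 genes are too few to compare with the 1.01% of all genes. Of the 10, 5 were listed in the mRNA table, against 72.9% of all genes. Depths reached 4.48, for ABCG2, a transporter with H3K4me3 alone. GPAT5, the suberin relative of GPAT4, was not listed and lay 97.7% under H3K27me3 with no H3K4me3. FAR1 had the highest depth among those with H3K27me3 alone, at 4.03. ASFT (1.52) and ABCG20 (2.82) carried H3K4me3 alone, and ASFT had neither mark among higher-scoring domains. FAR1, ABCG2 and ASFT overlap another annotated gene.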
